A study of Mus musculus with 6 samples.

Results

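Lecticans are large chondroitin sulfate proteoglycans of the extracellular matrix, and the 8 genes described here are the lectican genes Ncan, Bcan, Vcan and Acan together with Hapln1, Tnc, Ptprz1 and Cspg5, whose products bind lecticans or carry the same kind of sugar chain. They were measured on Affymetrix arrays in the posterior eye of mouse embryos at embryonic day 15.5. The set was chosen by the signal of neurocan, the product of Ncan, which had been among the higher ones in Oa1-/- against WT eyes, and the other genes were added as its family and partners. Every probe set that the platform annotation assigns to them was taken, 24 probe sets of 8 genes, out of 45037 probe sets of 18193 named genes on the array. The Oa1-/- group consisted of 3 arrays from mice lacking Oa1, now named Gpr143, a receptor gene active in melanocytes and the retinal pigment epithelium. The WT group consisted of 3 arrays from wild-type mice of the same age. Each array was hybridized with RNA from a pool of the eyes of 6 embryos of 1 dam, with the anterior segments cut away, so a replicate is a litter. The sources used here state neither the strain nor the sexes of the embryos, nor how much of Oa1 is missing.

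A lectican binds hyaluronan through its amino-terminal end, and a link protein such as Hapln1 locks that contact. Its carboxy-terminal end holds a C-type lectin domain that binds tenascins, and chondroitin sulfate chains hang from the stretch between. In the adult brain these parts assemble into perineuronal nets around neurons, while in the embryo versican and neurocan line the routes of growing axons and migrating cells. Chondroitin sulfate is known to turn back retinal axons, and its pattern in the embryonic retina and at the chiasm has been linked to the course that these axons take.

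The arrays were first checked against their labels and against each other. Gpr143 had a signal of 28.3, 39.1 and 6.02 on the Oa1-/- arrays, against 250.05, 257 and 246 on the WT arrays. All 3 Oa1-/- values lay below all 3 WT values, a log2 change of −2.82 (SE 0.33, limma adjusted p = 0.287; two-sided exact permutation p = 0.1, the smallest that 3 arrays against 3 can give). Markers of the eye were bright, with Pax6 between 10597 and 11541 in Oa1-/- and between 10026 and 10063 in WT. The lens crystallin gene Cryaa was bright too, at 23318 to 23580 in Oa1-/- and 19548 to 24690 in WT, although the anterior segments had been removed. Of 7 pigment epithelium markers 6 passed the filter on low signals, with the melanin synthesis gene Dct at 8728 to 9838 in Oa1-/- and 7280.1 to 9961 in WT, and only Rpe65, at 11.7 or less on all 6 arrays, did not. The highest of 27 bacterial control probe sets, which have no target in mouse RNA, gave 22.1 to 39.3, and a signal in that range cannot be told from background. Of the 6 arrays, 3 stood apart. Oa1-/- replicate 1 had the highest signal from the 3' control for 18S ribosomal RNA, at 6348, while the other Oa1-/- arrays gave 2618 and 2608 and the WT arrays 1476 to 1988. WT replicate 1 had the lowest mean log2 level of the lens and extraocular muscle lists, although 3 of the 6 muscle markers (Myog, Myod1 and Tnnt1) were lowest on Oa1-/- replicate 2. WT replicate 3 gave 9.26 for the Y-linked gene Eif2s3y, where the lowest value on the other arrays was 406. That lies under the highest bacterial control of the same array, 29.9, so this gene showed no male RNA in that pool. The part of the embryos' sexes in the member values was not tested.

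Across the 8 genes, no difference between the genotypes passed the test. Of the 24 probe sets, 12 passed the filter on low signals (the mean of log2(signal + 16) over all 6 arrays above the 40th percentile), and these belong to Ncan, Vcan, Acan, Tnc, Ptprz1 and Cspg5. Leaving aside Ncan, which chose the set, limma called 0 of 9 at an adjusted p below 0.05, and the same test called 0 of 27029 probe sets (0.0%). At an unadjusted p below 0.05 there were 0 of the 9, and 1111 of all 27029. The signal was higher in Oa1-/- on 3 of the 9 and lower on 6, with a median log2 change of −0.06. Over all probe sets tested 47.5% were higher and the median was −0.01. Log2 changes of the 9 ran from −0.36 to 0.08.

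**Figure D1:**
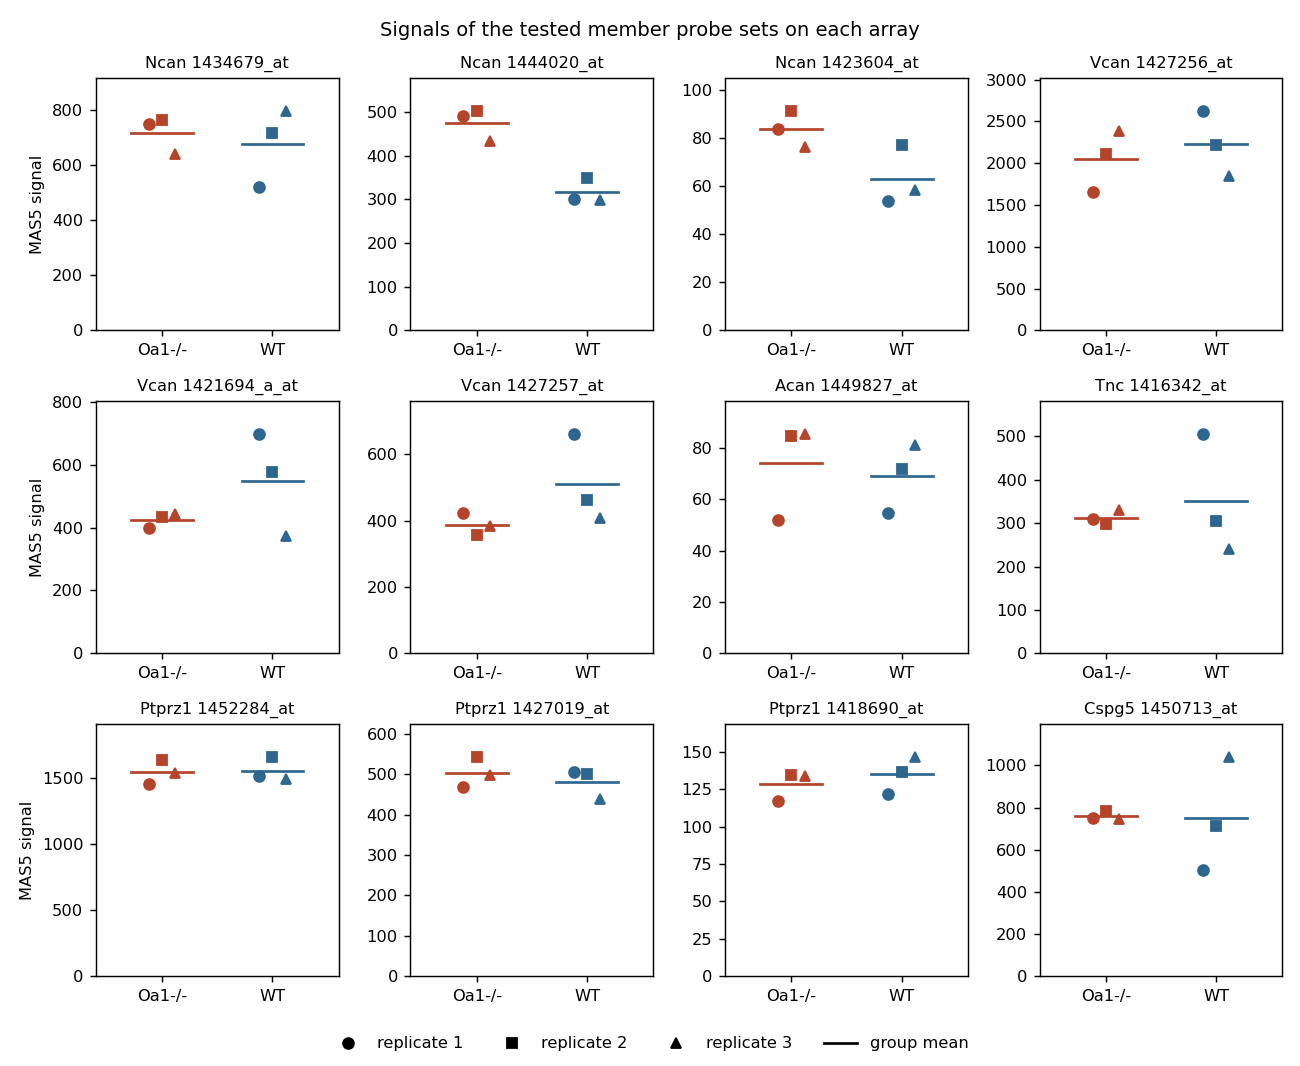
MAS5 signal (vertical axes, linear, from 0) of the 12 tested member probe sets, with Oa1-/- on the left and WT on the right of each panel. Points are arrays, with a shape for each replicate number, and bars are group means. Only Ncan 1444020_at separates the genotypes, with its Oa1-/- arrays at 434 to 501 and its WT arrays at 298 to 349, and WT replicate 1 is the extreme array in 7 of the 12 panels.

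Neurocan is the lectican made mainly by nervous tissue, and it binds the adhesion molecules Ncam1 and L1cam. Which of its 3 probe sets chose the set is not stated, so the values of all 3 are given without a test. The largest difference was on 1444020_at. It read 489, 501 and 434 in Oa1-/- eyes, against 299.9, 349 and 298 in WT eyes. The lowest Oa1-/- array lay above the highest WT array, and the log2 change was 0.57 (SE 0.13), a 1.48-fold higher signal. It was the only one of the 12 tested probe sets whose groups did not overlap in the higher direction, where 4.95% of all probe sets tested did the same. None of the 12 lay wholly lower in Oa1-/-, against 5.3% of all probe sets tested, and groups apart in either direction made up 10.2% of all.

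The other Ncan probe sets did not separate the genotypes. The brightest, 1434679_at, read 749, 765 and 639 in Oa1-/- against 519, 717 and 796 in WT. The highest and the lowest of these values are both WT arrays. Its log2 change was 0.10 (SE 0.16), and it was −0.0768 without WT replicate 1. The dimmest, 1423604_at, read 83.6, 91.0 and 76.4 in Oa1-/- and 53.7, 77.1 and 58.5 in WT, a log2 change of 0.34 (SE 0.22), with a slight overlap.

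The 3 Ncan probe sets had means in the same direction. Within an array, the log2 ratio of 1444020_at to 1434679_at was −0.60, −0.60 and −0.54 in Oa1-/- and −0.76, −1.01 and −1.37 in WT. All Oa1-/- ratios lay above all WT ratios, with WT replicate 3 farthest away. However, Ncan was chosen for a higher signal in Oa1-/-, and 1444020_at is its probe set with the largest difference. The order of these ratios can therefore follow in part from that choice. The ratio of 1423604_at to 1434679_at was −2.94, −2.87 and −2.83 in Oa1-/- and −2.94, −2.98 and −3.44 in WT. Which exons or transcript ends these probe sets read was not analysed here, so a shift between transcripts and a change of the gene as a whole cannot be told apart.

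The Ncan start region is shown because Ncan chose the set, and the Vcan one further on because its bright probe sets had the largest differences of the other sign. In the RefSeq promoter table (GRCm38.p6) it lies at chr8:70120795-70121094 on the minus strand, from 250 bases before to 50 bases after the annotated start. Capitals mark a GC box, 2 overlapping matches to GCGCATG, the core of the palindrome that NRF1 binds, and a TATA-like stretch, in that order.
Ncan: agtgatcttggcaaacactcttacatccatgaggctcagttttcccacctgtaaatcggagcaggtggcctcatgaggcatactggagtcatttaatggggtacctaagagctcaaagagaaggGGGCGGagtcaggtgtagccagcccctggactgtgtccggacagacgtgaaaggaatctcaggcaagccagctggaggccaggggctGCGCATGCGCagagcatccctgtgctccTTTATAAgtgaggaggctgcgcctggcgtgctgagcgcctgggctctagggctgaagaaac
GCGCATG lies at −39 to −33 from the annotated start and its reverse complement CATGCGC at −36 to −30, overlapping it, while TTTATAA lies at −11 to −5. On either strand, GCGCATG occurs in 3.91% of the 32851 promoters of the table and TTTATAA in 4.01%, and among the 7 genes described here that the table holds, only Ncan has either. The E-box CACCTG, not in capitals, has 3 matches in Ncan and none in the other 6, and 20.2% of promoters hold it. GGGCGG, at −126 to −121, occurs in 35.7% of promoters. These are matches of letters, and the arrays hold no measurement of binding.

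Versican, the lectican of loose embryonic connective tissue and of neural crest pathways, had 3 bright probe sets, all with a lower mean in Oa1-/-. The brightest, 1427256_at, read 1654, 2104 and 2389 in Oa1-/- and 2620.5, 2223 and 1848 in WT. The groups overlapped almost fully, and the log2 change was −0.12 (95% interval −0.49 to 0.25, limma adjusted p = 0.985). The probe set 1421694_a_at read 399, 434 and 444 in Oa1-/- and 697, 578 and 373 in WT, a change of −0.31 (interval −0.79 to 0.16, limma adjusted p = 0.985). The probe set 1427257_at read 422, 358 and 383 in Oa1-/- and 660.35, 462 and 409 in WT. Its change of −0.36 (interval −0.77 to 0.06) was the largest in size among the 9 tested probe sets other than those of Ncan, with an unadjusted limma p of 0.0821 and an adjusted p of 0.985.

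WT replicate 1 was the highest array on all 3 bright Vcan probe sets. Without it the log2 changes were −0.000847, −0.12 and −0.16 in the order given above, so much of the lower Oa1-/- mean rested on that array. Periocular mesenchyme markers, from a list for the connective tissue that surrounds the growing eye, moved in the same direction. Of 8 measured genes 7 had a lower mean in Oa1-/-, while 50.9% of all genes had a higher one. The list's mean log2 level, centred on the 6 arrays, was −0.14, −0.14 and −0.18 in Oa1-/- and 0.21, 0.09 and 0.16 in WT. The summed signal of the list was 52140 to 53656 in Oa1-/- and 50195 to 62978 in WT, and 0 of its markers were listed at 0. The mesenchymal factor Twist1 read 596, 571 and 593 in Oa1-/- and 1012, 721 and 671 in WT, again with WT replicate 1 on top. Foxc1 and Foxc2 were also highest there, while Osr1 peaked on WT replicate 3 and Fbln2 on WT replicate 2. The bright collagen genes Col1a1, Col1a2 and Col3a1 went the other way on WT replicate 1. Their signals there, 6221, 20291 and 19257, were the lowest of the 6 arrays, so the list did not rise as a whole on that array. The part of these cells in the Vcan values was not tested, and in a bulk sample fewer cells of a type and less RNA per cell cannot be told apart.

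The Vcan start region lies at chr13:89742463-89742762 on the minus strand (GRCm38.p6, RefSeq). Capitals mark GC boxes (GGGCGG or its reverse CCGCCC) and a CCAAT box, which here reads ATTGG on the strand printed.
Vcan: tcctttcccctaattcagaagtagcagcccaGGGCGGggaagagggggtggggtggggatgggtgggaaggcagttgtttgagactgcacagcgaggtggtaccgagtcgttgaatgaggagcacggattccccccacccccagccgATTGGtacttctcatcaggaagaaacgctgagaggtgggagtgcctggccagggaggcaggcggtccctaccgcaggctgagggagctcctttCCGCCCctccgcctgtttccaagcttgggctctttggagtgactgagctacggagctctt
The CCAAT box lies at −103 to −99 and the GC boxes at −219 to −214 and −10 to −5. CCAAT on either strand occurs in 37.4% of promoters, so the match is a common one. Neither GCGCATG nor TTTATAA is among these letters.

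The other 5 Vcan probe sets were dim and were not tested. They read between 0.504 and 65.3 on the Oa1-/- arrays and the WT arrays together, with 4 of the 5 means higher in Oa1-/-. On 1433043_at the signals were 32.9, 34.1 and 65.3 in Oa1-/- and 30.3, 25.6 and 21.1 in WT, within or near the range of the bacterial controls on all but Oa1-/- replicate 3. On 1447586_at all signals were 10.01 or less. These 2 were the only ones of the 12 untested member probe sets whose groups did not overlap with Oa1-/- on top, and 6.08% of all probe sets under the filter did the same. Of the 12 untested member probe sets, 7 had a higher mean log2 level in Oa1-/-, against 55.8% of all probe sets under the filter.

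Aggrecan, encoded by Acan, is the main proteoglycan of cartilage and later of perineuronal nets. Its single probe set, 1449827_at, read 52.1, 84.8 and 85.4 in Oa1-/- and 54.5, 72.0 and 81.1 in WT. Each genotype had 1 low array, and the groups covered the same range. The log2 change was 0.07 with an interval of −0.51 to 0.65 (limma adjusted p = 0.995), which is too wide to show a change of the size seen for Ncan 1444020_at. That size may be overstated, because Ncan chose the set. Of 9 cartilage markers 7 passed the filter, 5 of them with a lower mean in Oa1-/-, and their summed signal was 12813 to 13695 in Oa1-/- and 11700 to 14287 in WT, with 0 markers listed at 0. Col2a1, a cartilage collagen, read 674, 707 and 808 in Oa1-/- and 906, 869.6 and 939 in WT, without overlap and with a log2 change of −0.31 (limma adjusted p = 0.985, unadjusted p of 0.0177). Matn4, a matrilin, read 1651, 1709 and 1569 in Oa1-/- and 1962, 1964 and 2222 in WT, also without overlap and with a change of −0.31 (limma adjusted p = 0.985, unadjusted p of 0.00613). The other cartilage markers that passed had overlapping groups. Over all genes, 50.9% had a higher mean in Oa1-/-, and 10.8% had groups that did not overlap, in either direction. Col9a1, the brightest, had a higher mean in Oa1-/-, 8201 against 7478 in WT, with a log2 change of 0.14. Sox9 had a change of 0.02, Cnmd −0.03, Col11a1 −0.11 and Col9a2 −0.20. Matn1 and Comp lay under the filter, and the part of cartilage in the Acan values was not tested.

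Brevican and the link protein Hapln1 were dim. Brevican, encoded by Bcan, is a lectican of the maturing brain. Its probe set 1441899_x_at read 64.9, 72.7 and 69.9 in Oa1-/- and 54.1, 47.5 and 65.7 in WT, and 1416718_at read 38.3, 42.5 and 46.1 in Oa1-/- and 6.08, 36.7 and 39.8 in WT. Both had a higher mean in Oa1-/- with overlapping groups, and neither was tested. Hapln1, which fastens lecticans to hyaluronan, had 4 probe sets, all under the filter and all with a lower mean in Oa1-/-. Their signals reached at most 35.4 in Oa1-/- and 53.9 in WT, and the highest array was WT replicate 1 on 3 of the 4. Most of these values lie in or near the range of the bacterial controls, where a difference between genotypes was not detectable.

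**Figure D2:**
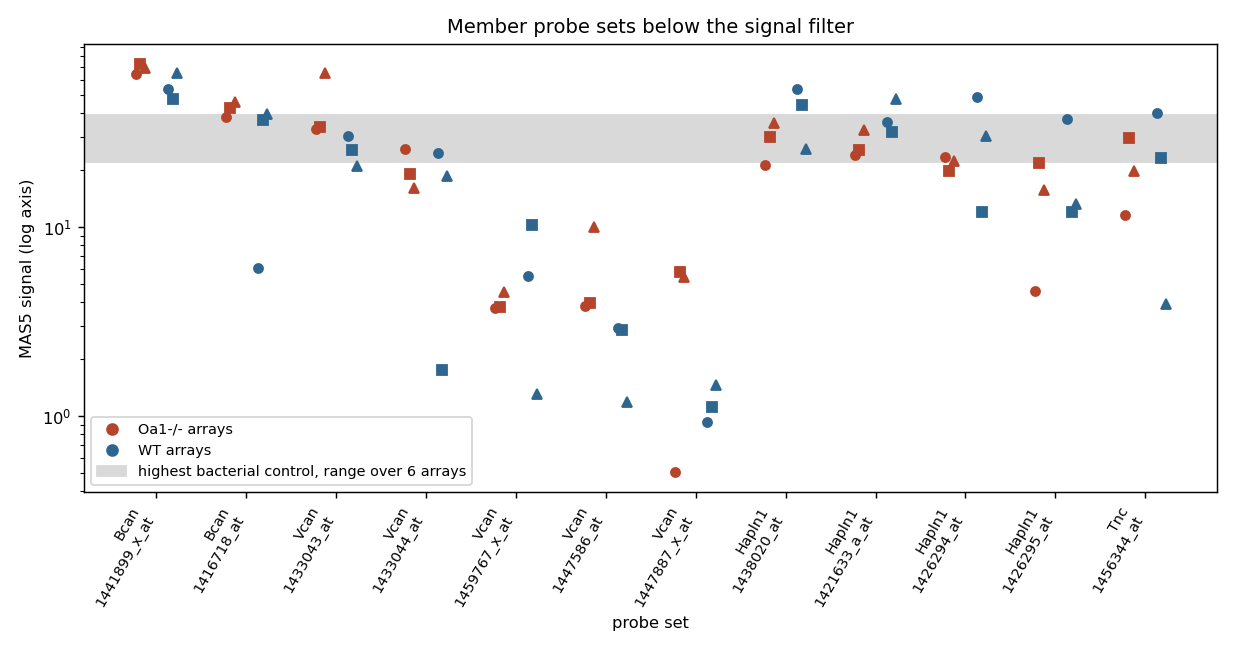
MAS5 signal (vertical axis, log scale) of the 12 member probe sets below the filter, with Oa1-/- arrays to the left of WT arrays in each column and shapes for replicates 1 (circle), 2 (square) and 3 (triangle). The grey band is the range of the highest bacterial control over the 6 arrays, 22.1 to 39.3. The Hapln1 probe sets and Bcan 1416718_at lie in and around the band.

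Each lectican gene has a link protein gene beside it. In the RefSeq gene table, 0 genes lie between Ncan and Hapln4 on chromosome 8, between Bcan and Hapln2 on chromosome 3, between Vcan and Hapln1 on chromosome 13 and between Acan and Hapln3 on chromosome 7. Of these neighbours, only Hapln3 passed the filter. It read 159, 182 and 178 in Oa1-/- and 138, 165 and 122 in WT, a log2 change of 0.27 (interval −0.14 to 0.67, limma adjusted p = 0.985). Hapln4 read 21.8, 60.5 and 91.8 in Oa1-/- and 4.12, 8.39 and 29.5 in WT. The groups overlapped, since Oa1-/- replicate 1 lay below WT replicate 3, and the WT values lay at or under the bacterial controls. On its brighter probe set, Hapln2 read 50.4, 24.5 and 29.2 in Oa1-/- and 36.9, 44.0 and 68.2 in WT. On its other probe set it read 20.6, 19.5 and 24.9 in Oa1-/- and 14.3, 6.67 and 5.64 in WT, apart in the opposite direction but at or under the bacterial controls.

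Tenascin-C, a 6-armed glycoprotein encoded by Tnc that binds the lectin domain of lecticans, had 1 tested probe set. On 1416342_at it read 309, 297 and 330.2 in Oa1-/- and 505, 305 and 240.1 in WT. The Oa1-/- arrays sat close together between the WT extremes. The log2 change was −0.09 (interval −0.65 to 0.46, limma adjusted p = 0.990), and it was 0.19 without WT replicate 1. The second Tnc probe set read 40.01 or less on all arrays.

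Ptprz1, a receptor tyrosine phosphatase of progenitor cells and glia whose secreted form is the proteoglycan phosphacan, was the steadiest member. The probe set 1452284_at read 1455, 1635 and 1537 in Oa1-/- and 1515, 1658 and 1491 in WT. Highest and lowest arrays differed by 1.14-fold, and the log2 change was −0.01 with the narrowest interval of the 9 tested, −0.21 to 0.19 (limma adjusted p = 0.998). The probe set 1427019_at read 469, 542 and 497 in Oa1-/- and 505, 501 and 439 in WT, a change of 0.06 (interval −0.21 to 0.33). The dimmest, 1418690_at, read 117, 135 and 134 in Oa1-/- and 122, 137 and 147 in WT, a change of −0.06 (interval −0.46 to 0.33). For this gene, a difference of the size seen on Ncan 1444020_at lay outside all 3 intervals. That size is the largest of the gene that chose the set, so it may be overstated.

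Cspg5, neuroglycan C, is a transmembrane chondroitin sulfate proteoglycan of neurons that binds tenascins. On its single probe set, 1450713_at, it read 749.8, 785 and 748 in Oa1-/- and 505, 712 and 1039 in WT. The Oa1-/- arrays lay close together, while WT replicate 1 was the lowest and WT replicate 3 the highest of all 6. The log2 change was 0.08 (interval −0.43 to 0.58, limma adjusted p = 0.994). Leaving out WT replicate 1 gave −0.17, and leaving out WT replicate 3 gave 0.33.

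**Figure D3:**
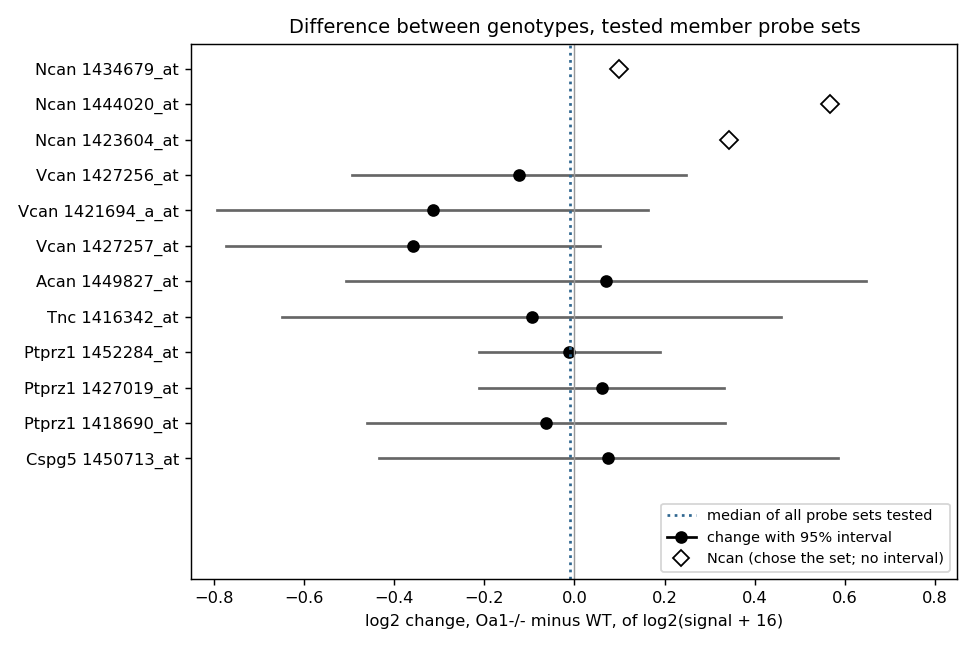
Log2 change, Oa1-/- minus WT, on the log2(signal + 16) scale (horizontal axis) for the 12 tested member probe sets (rows). Filled points carry limma's 95% interval, open diamonds are the Ncan probe sets, given without an interval because Ncan chose the set, and the dotted line is the median of all probe sets tested, −0.01. All 9 intervals include 0.

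WT litters differed from each other more than Oa1-/- litters did on most of these probe sets. The coefficient of variation over the 3 arrays of a genotype had a median of 7.56% in Oa1-/- and 19.5% in WT over the 12 tested probe sets, and it was larger in WT on 9 of the 12. Over all probe sets tested the medians were 11.4% in Oa1-/- and 12.2% in WT, and 49.4% had the larger value in WT. WT replicate 1 was the highest or the lowest array on 7 of the 12, against 39.6% of all probe sets tested. The 12 probe sets come from 6 genes and are not independent of each other.

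The members moved in opposite ways on the arrays that stood apart. On WT replicate 1, Tnc and Vcan were at their highest and Cspg5 and Ncan 1434679_at at their lowest. On WT replicate 3, Cspg5 and Ncan 1434679_at were at their highest and Tnc at its lowest. The other Ncan probe sets did not share that peak. On WT replicate 3, 1444020_at had its lowest value of the 6 arrays, 298, and 1423604_at read 58.5. Over the 6 arrays, the brightest probe set of Ncan, 1434679_at, followed that of Cspg5 with a Pearson r of 0.883 and a Spearman rho of 0.943. Ncan ran against Tnc with an r of −0.955 and a rho of −0.943. Because Ncan chose the set, its pairs are given without a test. Tnc ran against Cspg5 with an r of −0.969 (exact permutation p = 0.0125, adjusted p = 0.0625) and a rho of −0.829 (exact permutation p = 0.0583, adjusted p = 0.219). These are 3 of the 15 pairs of the 6 tested genes. The p-values are two-sided and adjusted by Benjamini-Hochberg across the 15. Among the rest, Ncan ran against Vcan with an r of −0.809 and a rho of −0.829. Without Oa1-/- replicate 3 and WT replicate 1, r for Ncan and Vcan was −0.411. Among the pairs without Ncan, no Pearson value and no Spearman value passed after adjustment.

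Each genotype holds too few arrays for a value of its own. Without the 2 arrays farthest from the median of Ncan, Oa1-/- replicate 3 and WT replicate 1, r was 0.907 for Ncan and Cspg5 and −0.825 for Ncan and Tnc. Without the 2 farthest from the median of Tnc, WT replicates 1 and 3, it was −0.254 for Tnc and Cspg5, so that relation rested on those arrays. Without WT replicate 1 alone the values were 0.613 for Ncan and Cspg5, −0.786 for Ncan and Tnc and −0.940 for Tnc and Cspg5. The pairs were singled out after their values were seen.

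**Figure D4:**
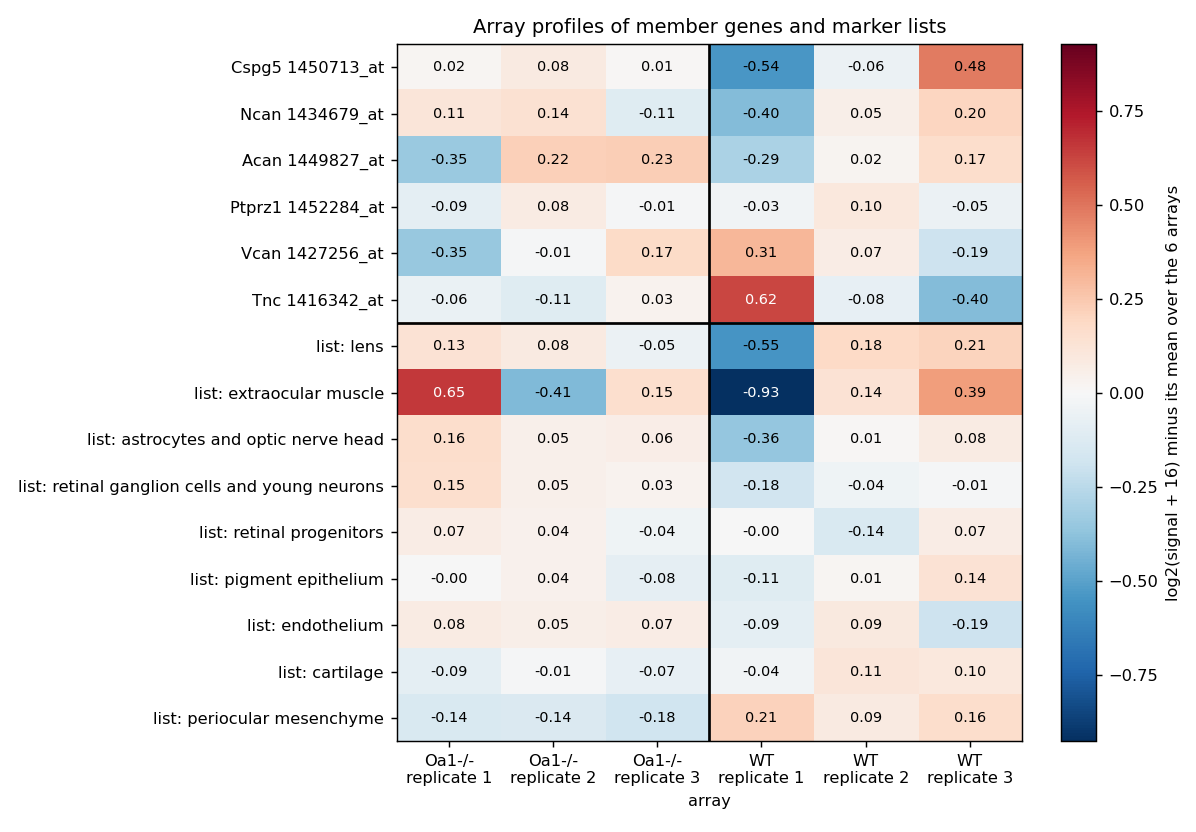
Level on each array (columns, Oa1-/- left of WT) of the brightest tested probe set of 6 member genes and of 9 marker lists (rows), as log2(signal + 16) minus its mean over the 6 arrays, averaged over genes for a list. Blue is below and red above the mean. WT replicate 1 is lowest for Cspg5, Ncan and 5 of the 9 lists (lens, muscle, astrocytes, ganglion cells and pigment epithelium) and highest for Tnc, Vcan and periocular mesenchyme.

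Several marker lists moved with the same arrays. On WT replicate 1 the lens list lay at −0.55 and the extraocular muscle list at −0.93, the lowest of the 6 arrays for both. Summed lens signals were 92667 to 98357 in Oa1-/- and 76653 to 103032 in WT, and those of muscle were 4404 to 9661 in Oa1-/- and 2712 to 8573 in WT. The astrocyte and optic nerve head list, at −0.36, and the pigment epithelium list, at −0.11, were also lowest there. Summed astrocyte signals were 16307 to 18225 in Oa1-/- and 16445 to 17818 in WT, and summed pigment epithelium signals were 28214 to 30717 in Oa1-/- and 26803 to 34004 in WT. The list of ganglion cells and young neurons, which make neurocan, had a mean of −0.18 on that array, again the lowest of the 6. Pou4f1, Isl1, Sncg, Gap43 and Stmn2 were lowest there, but Elavl4, Nefl, Nefm and Tubb3 were not. Nefm was at its highest there, at 5605. In the neuron list 8 of 9 genes had a higher mean in Oa1-/-, where 50.9% of all genes did. The list's summed signal of 49375 to 55477 in Oa1-/- lay above the 44823 to 47929 of WT. Groups did not overlap for 3 of the 9, against 10.8% of all genes in either direction. Gap43, a growth cone protein and 1 of these 3, read 7650.3, 6366 and 6188 in Oa1-/- and 5066, 5698 and 5923 in WT. Nefl had a log2 change of −0.05. Pou4f1, with a change of 0.10, had overlapping groups and its highest value on WT replicate 3. Of the markers in these 5 lists 0 were listed at 0, and the part of these tissues in the Ncan, Cspg5 and Tnc values was not tested.

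The genes with the array profile most like that of the brightest Ncan probe set were Ctsd, Syt4, Lrrc27, Sh3bgr and Cryba4. Likeness was the root mean square difference of the centred log2 levels over the 6 arrays, which ran from 0.0455 for Ctsd to 0.0591 for Cryba4 among 12901 other genes. Ctsd, a lysosomal protease, read 3692, 3533 and 2957 in Oa1-/- and 2436, 3549 and 3909 in WT. Syt4, a synaptotagmin of neuronal vesicles, read 1746, 1749 and 1459 in Oa1-/- and 1142, 1688 and 1708 in WT. Cryba4, a lens crystallin, read 18118, 18665 and 16127 in Oa1-/- and 13968, 18895 and 19068 in WT. All 5 had their lowest value on WT replicate 1, as Ncan did.

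The genes that make, anchor and cut this matrix were taken from 5 lists, each gene by its brightest tested probe set, and none passed at an adjusted p below 0.05 in limma (0 of all 12902 genes did, 0.0%). At an unadjusted p below 0.05, 1.68% of all genes were higher in Oa1-/- and 1.97% lower, and 50.9% of all genes had a higher mean. Groups that did not overlap, in either direction, made up 10.8% of all genes, the share to set beside each such gene below.

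Enzymes that build chondroitin sulfate gave 8 higher and 15 lower means in Oa1-/- of 23 measured genes, with a median log2 change of −0.07 and 0 genes at an unadjusted p below 0.05. B4galt7, which adds the first galactose of the linkage to the core protein, read 202, 231 and 219 in Oa1-/- and 244, 280.2 and 299.6 in WT. Chst14, a dermatan sulfotransferase, read 540.2, 451 and 550.4 in Oa1-/- and 613, 576 and 638 in WT. Both had groups that did not overlap, as 10.8% of all genes did, with log2 changes of −0.31 and −0.24 and unadjusted limma p-values of 0.0652 and 0.0748. Ugdh, which makes the glucuronic acid precursor, had a change of −0.14, and B3galt6, the next galactosyltransferase of the linkage, had 0.25.

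Proteases and their inhibitors gave 3 higher and 8 lower means of 11 genes, with a median of −0.08. Mmp2, a gelatinase made by connective tissue, read 2880.4, 2483 and 2653 in Oa1-/- and 3180, 3423 and 3515 in WT, a log2 change of −0.34 (interval −0.53 to −0.14, limma adjusted p = 0.985, unadjusted p of 0.00384). Mmp14, the membrane protease that activates Mmp2, read 1585, 1526 and 2359 in Oa1-/- and 2152, 2422 and 3303 in WT, with overlapping groups and a change of −0.53 (interval −0.98 to −0.0695, limma adjusted p = 0.985). Adamts15, an enzyme that cleaves lecticans, had a change of −0.22 and the inhibitor Timp2 one of −0.12, both with intervals that include 0. The periocular mesenchyme markers given beside Vcan were lower on the same arrays, and their part was not tested.

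Link proteins and genes of hyaluronan gave 4 higher and 9 lower means of 13 genes, with a median of −0.06. Cd44, the main cell surface receptor of hyaluronan, read 1484, 1077 and 1106 in Oa1-/- and 1599, 1477 and 1479 in WT. Only Oa1-/- replicate 1 reached the WT range, and the log2 change was −0.32 (limma adjusted p = 0.985, unadjusted p of 0.0359). Has2, the chief hyaluronan synthase of embryos, read 120.3, 93.9 and 94.4 in Oa1-/- and 218, 114 and 101 in WT, with WT replicate 1 far above the rest. That array was also the highest for Tnc and for the 3 bright Vcan probe sets. Hyal2, a hyaluronidase, had a change of −0.24 with overlapping groups.

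Other tenascins and proteoglycans gave 7 higher and 11 lower means of 18 genes, with a median of −0.04. Smoc2, a calcium-binding matrix protein of the Sparc family, read 1094, 942 and 1151 in Oa1-/- and 1619, 1436 and 1373 in WT. The groups did not overlap, and the log2 change of −0.47 (interval −0.72 to −0.22) had an unadjusted limma p of 0.00233 and an adjusted p of 0.985. Spock1, the proteoglycan testican-1 of neurons, read 1659, 1682 and 1801 in Oa1-/- and 1455, 1589 and 1542 in WT, a change of 0.16 with no overlap (interval −0.02 to 0.35). Sdc1, syndecan 1, had a change of −0.22 and Smoc1 one of −0.15.

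Receptors and ligands gave 12 higher and 10 lower means of 22 genes, with a median of 0.03. Cntn1, contactin 1, an axonal adhesion molecule that binds Ptprz1, read 1091, 1039.6 and 985 in Oa1-/- and 769.9, 929 and 868 in WT. The groups did not overlap, and the log2 change was 0.28 (interval 0.0404 to 0.51, limma adjusted p = 0.985, unadjusted p of 0.0269). Itga8, an integrin subunit that binds tenascin-C, read 688, 599 and 666 in Oa1-/- and 964, 838 and 754 in WT, a change of −0.37 with no overlap (interval −0.65 to −0.0991, limma adjusted p = 0.985, unadjusted p of 0.0136). L1cam, which neurocan binds, had a change of 0.09 and Itgb1 one of 0.20, both with intervals that include 0.

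**Figure D5:**
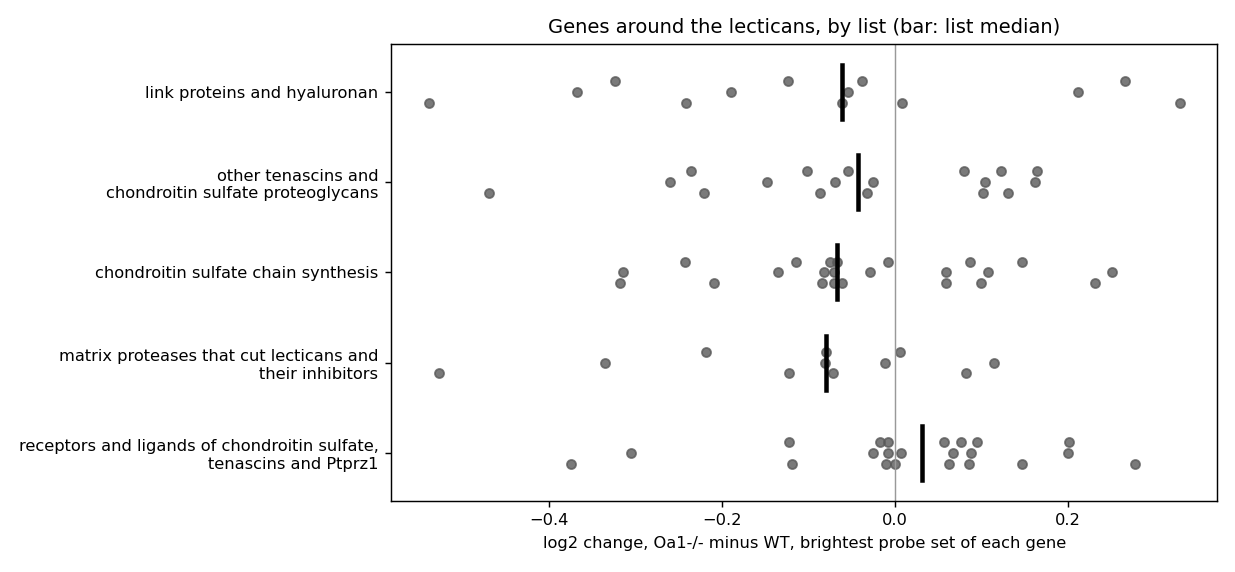
Log2 change, Oa1-/- minus WT (horizontal axis), of the brightest tested probe set of each gene in the 5 lists around the lecticans (rows). Each point is a gene and the bar is the list's median, which lies between −0.08 for the proteases and 0.03 for the receptors and ligands.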

How the data were processed

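The arrays measured posterior eye RNA of 3 Oa1-/- and 3 WT litter pools, from 12.5 micrograms of total RNA each, per the labels' protocols. The deposited values are intensities (MAS5 signals on a linear scale) for 45101 probe sets, 64 of them controls. Per the submitters' processing notes, MAS5 made them, and the version is not given in the sources used. On all 6 arrays the mean without the outer 2% at each end was 500.002, so the deposited values share 1 scale. Median signals were 93.6 to 129 in Oa1-/- and 108 to 121 in WT. No detection calls were used, and the number of arrays limits the precision. The limma p-values weigh the difference between genotypes against the spread between these litters, moderated across all probe sets tested. The permutation p-values come from reordering the 6 arrays.

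Probe sets were named from the platform annotation of 2016, with symbols updated through RefSeq (GRCm38.p6), which matched 34741 of 34945 and changed 0. The computed values were log2(signal + 16), a scale that understates changes of dim probe sets. After the filter 27029 probe sets, which hold 12902 genes that a probe set names alone, entered lmFit and eBayes of limma 3.58.1 (R 4.3.3) with an intensity trend and no covariate, two-sided, with Benjamini-Hochberg adjustment over all of them. The code was tested on simulated data. Named genes are all member probe sets, Gpr143, the link protein genes, the 4 genes of each matrix list with the smallest unadjusted p, and the 5 genes most like Ncan. Pax6, Cryaa, Rpe65, Dct, Eif2s3y, Twist1, Gap43, Myog, Myod1, Tnnt1, Col2a1, Matn4, Matn1 and Comp were named as checks after their values were seen. The further markers named from the mesenchyme, neuron and cartilage lists were also named after their values were seen. The members, lists and tests were chosen with earlier results of these data known. Alternatives were other pseudocounts (1 and 64), quantile normalization, median centring, no filter or one at the 70th percentile, no trend, array weights, a replicate block and leaving out each array.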

Additional observations from a re-analysis of the deposited data

How the results depend on the processing

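The 12 tested member probe sets gave 175 values under the alternatives, of which 164 kept their sign and 0 of the tested ones passed an adjusted p below 0.05 (smallest 0.343). The sign turned in 11, of which 10 left out 1 array. With no filter, the filter at the 70th percentile, no trend or the replicate block, the log2 change equals the main one by construction. Those values could not turn, so the count of kept signs overstates how steady the signs are. The count also holds the 3 Ncan probe sets, whose direction the choice of the set favoured. They kept their sign in 14 of 15 alternatives for 1434679_at, and in 14 of 14 for 1444020_at and for 1423604_at. Without WT replicate 1 the log2 change was −0.0768 for Ncan 1434679_at, −0.0607 for Acan, 0.19 for Tnc and −0.17 for Cspg5. Without Oa1-/- replicate 1 it was 0.0217 for Vcan 1427256_at and 0.0294 for Ptprz1 1452284_at. That Ptprz1 value was 0.0355 without WT replicate 2 and 0.0197 with median centring, and Ptprz1 1427019_at was −0.00397 without WT replicate 3. Acan was −0.0238 without Oa1-/- replicate 2 and −0.028 without Oa1-/- replicate 3. With 1 array left out, Ncan 1434679_at ran from −0.0768 to 0.22, Vcan 1427256_at from −0.25 to 0.0217, Acan from −0.0607 to 0.26, Ptprz1 1452284_at from −0.0539 to 0.0355 and Ptprz1 1427019_at from −0.00397 to 0.11. Over the same fits Ncan 1444020_at ran from 0.53 to 0.64, Ncan 1423604_at from 0.26 to 0.47, Vcan 1421694_a_at from −0.56 to −0.12 and Vcan 1427257_at from −0.50 to −0.16, while Tnc ran from −0.32 to 0.19 and Cspg5 from −0.17 to 0.33. Of the tested member probe sets, 6 of 12 had a higher mean in Oa1-/-, and 3 of those 6 were Ncan's. The count was 13 of 24 with no filter, 3 of 7 with the filter at the 70th percentile, and 4 to 8 with 1 array left out. Across all probe sets, 0 were called in limma, 2 with median centring and 2 with array weights, and 0 with any 1 array left out. Gpr143 passed with median centring (log2 change −2.79, adjusted p = 0.000627) and ran from −3.09 to −2.43 with 1 array left out. The cause of these shifts was not tested. The labels give replicate numbers but do not say whether the same number marks paired litters. The correlation of deviations between same-numbered arrays was −0.294, 0.152 and −0.248. With 3 arrays per genotype these values cannot decide whether litters were paired. With the replicate block the counts were 0 over all probe sets and 6 of 12 for the members, and Gpr143 had an adjusted p of 0.704. Signals near the bacterial controls limit Bcan, Hapln1 and the dim Vcan probe sets.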
